A study of Homo sapiens with 8 samples.

Results

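The regions described here are the inner m6A peaks of densely methylated genes in HCT116 cells, a human colorectal cancer line. m6A is N6-methyladenosine, a methyl mark on adenosines inside messenger RNA. The members were chosen by the number and order of the listed peaks. Genes with at least 8 peaks under 1 gene identifier were kept, 9 names of giant scaffold genes (AHNAK, AHNAK2, EPPK1, PLEC, DST, MACF1, DSP, PPL and EVPL) were left out, and the 5′-most and 3′-most peak of each gene was dropped. This left 450 peaks on 59 genes, which are 1.99% of the 22626 peaks on 12009 genes. The series holds 8 libraries in 4 groups of 2. Cells with a stable short hairpin knockdown of ALKBH5 gave m6A immunoprecipitation (IP) and input libraries, and so did control cells labelled sh_NC, whose genotype label is WT. The level of ALKBH5 in these libraries was not analysed here. Both arms were grown in the same medium and poly(A)-selected before fragmentation. One hairpin name, sh_AL1, appears for the knockdown, and nothing in the labels says that the 2 libraries of a group came from separate cultures. The analysed file is 1 peak list for the whole series, without values per library, so no value below carries a replicate error and sequencing depth is unknown. Of 8 colorectal epithelium markers 5 carried a peak (CDH1, CDX2, EPCAM, KRT18 and KRT8), against 1 of 5 fibroblast markers and 0 of 4 leukocyte markers. An absent peak does not show an absent transcript.

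m6A is written on nascent RNA by a methyltransferase complex built around METTL3 and METTL14, mostly at a short consensus with a GGAC core, and it can be removed by ALKBH5. Long internal exons and the neighbourhood of stop codons are known to hold much of the mark, while sequence close to exon junctions, covered by the exon junction complex, holds little. A gene with a very long exon can therefore carry a row of separate peaks. Reader proteins of the YTH family bind the mark and affect RNA decay and translation.

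No genome was read here, so peak sequence is shown only where a peak falls inside a RefSeq promoter window. For 3 genes an inner peak reached into the RefSeq window of 250 bases before to 50 bases after that gene's annotated start (build GRCh38.p14), and these windows are shown because all 3 of those peaks passed the authors' threshold between the arms. They read 5′ to 3′ on the gene's strand, with the bases inside the peak's exon blocks in capitals. The BRD2 window is chr6:32972834-32973133 on the plus strand, the JMJD1C window chr10:63269194-63269493 on the minus strand, and the ZBED6 window chr1:203797273-203797572 on the plus strand.
BRD2: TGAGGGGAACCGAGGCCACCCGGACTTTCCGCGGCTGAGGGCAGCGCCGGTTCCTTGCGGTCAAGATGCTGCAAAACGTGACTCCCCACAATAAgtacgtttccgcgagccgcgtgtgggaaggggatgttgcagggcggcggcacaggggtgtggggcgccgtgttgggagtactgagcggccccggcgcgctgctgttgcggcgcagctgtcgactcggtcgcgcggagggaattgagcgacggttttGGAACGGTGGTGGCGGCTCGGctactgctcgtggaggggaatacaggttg
JMJD1C: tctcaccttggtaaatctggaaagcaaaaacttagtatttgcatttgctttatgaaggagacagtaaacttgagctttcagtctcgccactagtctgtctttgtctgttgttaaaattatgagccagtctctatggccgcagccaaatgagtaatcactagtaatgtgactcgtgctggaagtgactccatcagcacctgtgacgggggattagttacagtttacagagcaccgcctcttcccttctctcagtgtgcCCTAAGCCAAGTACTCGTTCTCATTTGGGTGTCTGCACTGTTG
ZBED6: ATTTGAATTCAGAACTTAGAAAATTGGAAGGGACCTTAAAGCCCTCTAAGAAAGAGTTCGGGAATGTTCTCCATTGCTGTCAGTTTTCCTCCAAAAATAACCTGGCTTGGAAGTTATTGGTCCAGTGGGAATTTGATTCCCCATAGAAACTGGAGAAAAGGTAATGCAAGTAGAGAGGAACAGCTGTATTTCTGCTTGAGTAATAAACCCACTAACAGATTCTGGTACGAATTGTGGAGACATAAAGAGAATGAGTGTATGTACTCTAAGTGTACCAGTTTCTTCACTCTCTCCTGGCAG
The BRD2 peak covered 115 bases of its window in 2 stretches, 94 before the annotated start and 21 after it. The JMJD1C peak covered 43 bases, all after the start, and the ZBED6 peak covered all 300 bases, 250 of them before the start. In each of the 3 genes the dropped 5′-most peak lay further 5′ than the peak shown, for JMJD1C across a gap of 196464 bases. Bases before an annotated start are therefore not shown to lie outside the transcript. The letters GGAC occurred 1 time inside the peak in the BRD2 window, there as GGACT, which contains GGAC, and 1 time inside the peak in the ZBED6 window. The opposite strand of the ZBED6 window held GGAC 1 time. GGAC occurred 0 times on either strand of the JMJD1C window, which says only that these letters are not in these 300 bases. Of 35116 RefSeq windows of this kind, 66.3% held GGAC on the gene's strand and 87.4% on either strand. GGACT was held by 25.3% on the gene's strand and by 44.2% on either strand.

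Enrichment, the authors' linear ratio read as IP over input, belongs to the peak calling that chose the members and is given as a description. The inner peaks had a median enrichment of 11.8-fold (quartiles 6.05 and 18.6). The ends of the same genes stood at a median of 10.8-fold, and all 22626 peaks at 10.1-fold. The inner peaks were not strong by the authors' own p of the peak, with a median log10 p of -5.95, against -8.20 for all peaks. Their higher median enrichment is therefore not read as stronger methylation. Their exonic length had a median of 301 bases, against 300 for all peaks, and ranged from 120 to 4320 bases. The longest lay on ANKRD11, a chromatin cofactor gene, and had an enrichment of 32.4-fold. Of the 450 peaks 360 were a single exon block and the other 90 spanned more than 1 block, which 30.4% of all peaks did. The most blocks, 10, were in a peak of ASPH, an aspartyl hydroxylase gene of the endoplasmic reticulum.

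**Figure D1:**
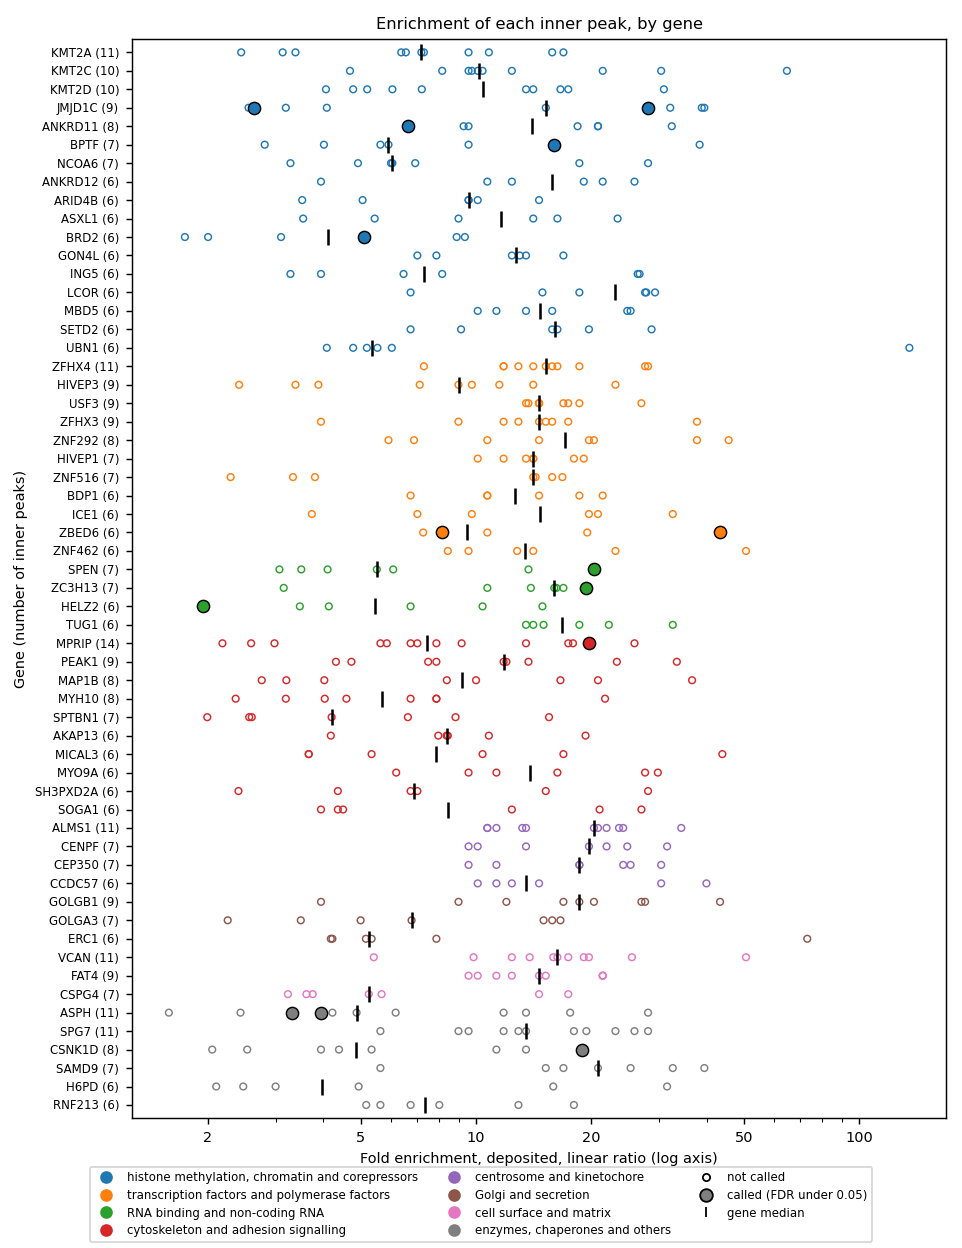
Enrichment of 437 inner peaks on 58 genes (x axis, linear ratio on a log axis), 1 line per gene, coloured by the role of the gene; filled points passed a false discovery rate (FDR) of 0.05 between the arms, open points did not, and bars mark gene medians. The values run from 1.58-fold on ASPH to 135-fold on UBN1.

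The highest enrichment was 135-fold on UBN1, a histone chaperone gene, on a gene whose 6 inner peaks had a median of 5.36-fold. Next came ERC1, an active zone and cell cortex scaffold, at 73.1-fold, KMT2C at 64.7-fold, and further down a pair at 50.6-fold on VCAN and ZNF462. The lowest were 1.58-fold on ASPH, a pair on BRD2, the weaker at 1.74-fold, 1.94-fold on HELZ2 and 1.99-fold on SPTBN1. None of these 5 highly enriched peaks passed the threshold between the arms. Of the weakly enriched ones the HELZ2 peak did.

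Neighbouring peaks of these genes were mostly under 1000 bases apart. Choosing genes by a high number of peaks bears on this spacing, which was not compared with genes outside the set. Over the 509 gaps between consecutive peaks of the 59 genes, the median genomic distance was 629 bases (quartiles 209 and 5378), and 290 gaps (57.0%) were under 1000 bases, counting 1 overlapping pair. In 38 of the 59 genes the gaps under 1000 bases were no fewer than the longer ones, while 89 gaps exceeded 10000 bases. USF3, a transcription factor gene, had 11 peaks within 9216 bases of chromosome 3, and its widest gap was 689 bases. SAMD9, an antiviral factor gene, had 9 peaks within 14616 bases of chromosome 7, with no gap above 328 bases. At the other end MBD5, a methyl-CpG-binding domain gene, had 8 peaks over 465487 bases, with 1 gap of 433042 bases. Distances are genomic, so an intron inside a gap counts in full. Of the inner peaks 449 lay within the matched RefSeq gene, at a median of 21485 bases from its 3′ end, and 1 was centred within 1000 bases of that end. Dropping the 3′-most peak of each gene bears directly on that last count.

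**Figure D2:**
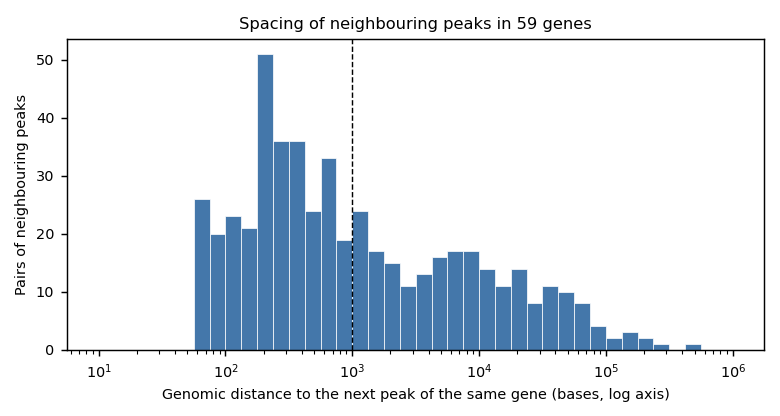
Genomic distance between neighbouring peaks of the same gene (x axis, bases, log axis) against the number of neighbouring pairs (y axis), over the 59 genes with both end peaks included; the dashed line marks 1000 bases. Of 509 gaps 289 are drawn left of the line, and 89 exceed 10000 bases. The 1 overlapping pair has no positive gap and is not drawn.

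The comparison of the arms asks which of these peaks differed between shALKBH5 and shNC cells. Of the 450 inner peaks 15 (3.33%) passed an FDR of 0.05 per the authors' deposited table, against 8.23% of all 22626 peaks. Called with a positive log2 fold were 9 of the 450, against 5.74% of all peaks, and called with a negative one 6 of the 450, against 2.49% of all peaks. Among calls alone, 9 of 15 were positive in the inner peaks and 1298 of 1862 over all peaks. At an unadjusted p of 0.05 the authors' deposited table gives 63 of the 450 inner peaks, against 19.9% of all peaks. No source used here states which arm is the numerator, so a sign is not read as a gain or loss in the knockdown. Nor is it stated whether the folds are corrected for transcript level, so more methylation per transcript and more transcript cannot be told apart. With only 15 calls in a set chosen on the peak list, these shares are a description.

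The folds themselves were at least as wide as elsewhere. In the authors' deposited table the inner peaks had a median log2 fold of 0.20 (quartiles -0.56 and 1.02, SD 1.22 across peaks), against 0.14 (quartiles -0.52 and 0.79, SD 1.11) for all peaks. A fold above 0 was seen for 264 inner peaks (58.7%), and a fold above 0.14, the median of all peaks, for 240 (53.3%). The absolute log2 fold exceeded 1 in 193 inner peaks (42.9%), against 32.0% of all peaks, and 43 inner peaks past 2 were not called. Those 43 had a median log10 p of the peak of -5.77.

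Strength of the peak moved with both measures. All peaks were ranked into 5 classes by the authors' p of the peak, and the weakest 2 classes held 95 and 134 of the inner peaks. In the strongest class 4 of 37 inner peaks (10.8%) were called per the authors' deposited table, against 21.9% of the other peaks of that class. In the next class it was 6 of 67 (8.96%) against 11.0%. The middle class had 2 of 117 (1.71%) against 5.19%, and the weaker classes 3 of 134 (2.24%) against 2.25% and 0 of 95 against 1.02%. The median absolute log2 fold was higher in the inner peaks in each of the 5 classes, from 1.05 against 0.82 in the weakest class to 0.56 against 0.41 in the strongest. The part of peak strength in the low share of calls was not tested beyond these classes.

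**Figure D3:**
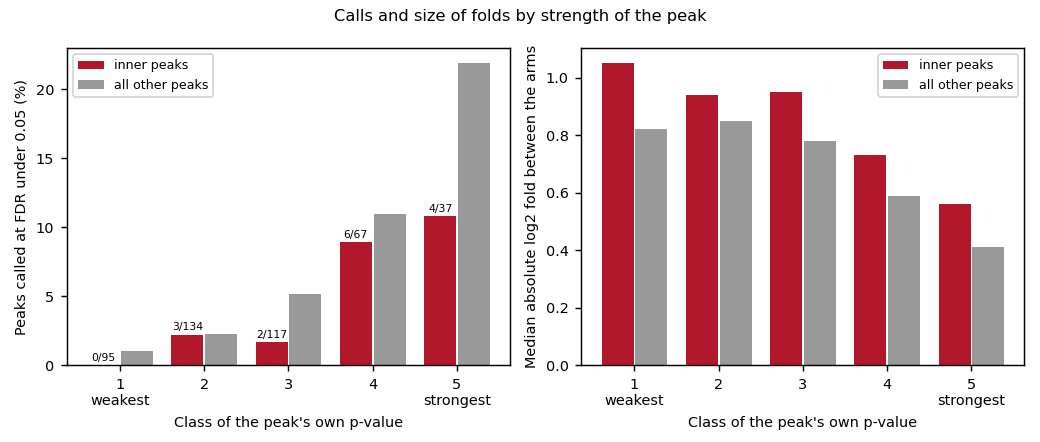
Share of peaks called at an FDR under 0.05 (left, y axis in %) and median absolute log2 fold between the arms (right) in 5 classes of the peak's own p (x axis, weakest to strongest), for the inner peaks (red, with called and total counts) and all other peaks (grey). The called share of both sets is highest in the strongest class, where it is 10.8% and 21.9%, while the median absolute fold is lowest there, at 0.56 and 0.41.

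Just inside the threshold, the 150 inner peaks of the 25 genes with 8 peaks had 4 calls (2.67%), all negative, per the authors' deposited table. They were 2 on ZBED6 and 1 each on BRD2 and HELZ2, and all but the HELZ2 peak overlap a listed peak of another gene. Just outside the threshold, the 330 inner peaks of the 66 genes with 7 peaks had 27 calls (8.18%), 19 positive and 8 negative, a share close to the 8.23% of all peaks. Their median enrichments were 10.6-fold and 11.8-fold. The end peaks that were dropped had 5 calls of 118 (4.24%), 3 at 5′ ends and 2 at 3′ ends. These were, per the authors' deposited table, the 5′ peaks of UBN1 (-4.19, FDR 0.0083), BPTF (1.27, FDR 0.045) and ZNF292 (1.39, FDR 0.035), and the 3′ peaks of CCDC57 (-2.01, FDR 0.017) and ZNF292 (-2.45, FDR 0.032). ZNF292 thus had called ends of opposite sign, and none of its 8 inner peaks was called.

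The 15 calls fell on 12 genes. JMJD1C, ASPH and ZBED6 had 2 each, always of 1 sign, and 0 of the 59 genes had inner calls of both signs. No gene had 3. The called peaks were stronger and longer than the uncalled ones, with a median log10 p of the peak of -20.5 against -5.83 and a median exonic length of 539 against 301 bases. Of the 15, 6 were made of 2 exon blocks.

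**Figure D4:**
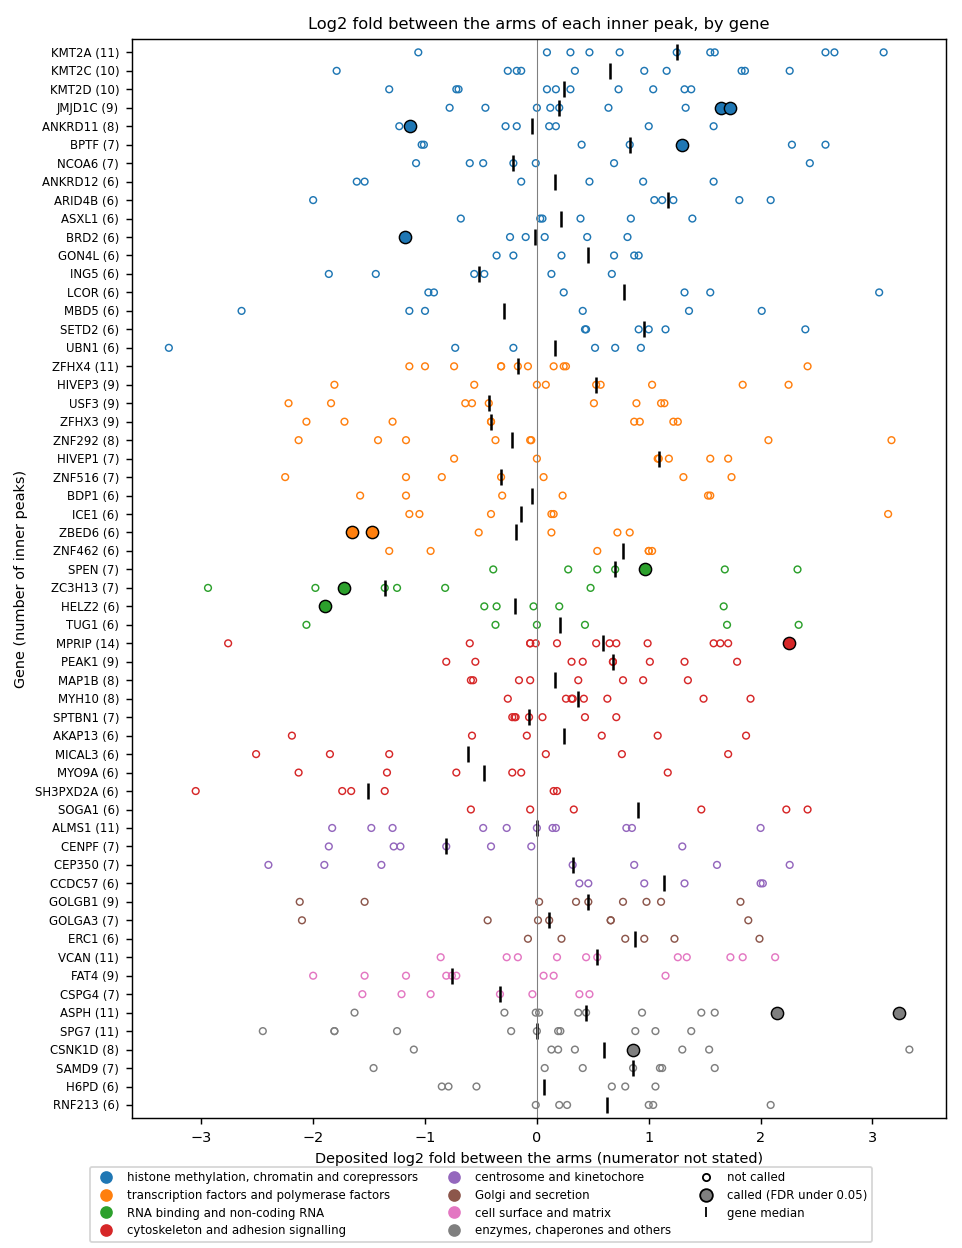
Deposited log2 fold between the arms (x axis, numerator not stated) of 437 inner peaks on 58 genes, 1 line per gene, coloured by the role of the gene; filled points passed an FDR of 0.05, open points did not, and bars mark gene medians. Folds run from -3.29 on UBN1 to 3.33 on CSNK1D, and 56 of these 58 genes have folds on both sides of 0.

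In the group of enzymes, chaperones and others, 4 of 62 inner peaks (6.45%) were called, all with a positive fold. Of all peaks 5.74% were called with a positive fold and 8.23% called in all. ASPH had 2 called peaks among 11. In the authors' deposited table they had log2 folds of 3.24 (FDR 0.023) and 2.15 (FDR 1.3e-06), at enrichments of 3.94-fold and 3.31-fold, both under the ASPH median of 4.88-fold. The ASPH peak next to the first of these on its 3′ side had the highest enrichment of the gene, 28.1-fold, and a log2 fold of -1.63 (FDR 0.62) per the authors' deposited table. CSNK1D, the gene of casein kinase 1 delta, which acts in circadian timing, had the smallest FDR of all inner peaks. This peak of 1289 exonic bases in 2 blocks (chromosome 17, 82243623 to 82245008) had a log2 fold of 0.86 (FDR 2.8e-07, log10 p of the peak -220) per the authors' deposited table. Another CSNK1D peak reached 3.33 and was not called (FDR 0.13, log10 p of the peak -2.73) per the authors' deposited table.

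SPG7, a mitochondrial protease gene, had 11 inner peaks and no call. The SPG7 peak nearest to a call had a log2 fold of -2.45 (FDR 0.056) per the authors' deposited table, and its 11 folds reached up to 1.38 with a median of 0.00. Median folds of the others without a call were 0.86 for SAMD9, 0.06 for H6PD, an enzyme of the pentose phosphate route in the endoplasmic reticulum, and 0.63 for RNF213, a giant ubiquitin ligase, per the authors' deposited table.

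Genes of histone methylation, chromatin and corepressors were the largest group, with 17 genes and 122 inner peaks, of which 5 were called, 3 positive and 2 negative, a lower share than the 8.23% of all peaks. KMT2A, KMT2C and KMT2D encode large methyltransferases of histone H3 lysine 4, and SETD2 a methyltransferase of another lysine of that histone. None of the inner peaks of KMT2A (11), KMT2C (10) and KMT2D (10) passed, with a smallest FDR of 0.063, for a KMT2D peak, per the authors' deposited table. KMT2A had the highest median fold of all 59 genes, 1.25, with 10 of 11 folds positive and values from -1.06 to 3.10 per the authors' deposited table. Of the KMT2A peaks 4 overlap peaks of an unnamed gene model on the same strand, so their reads cannot be told apart. KMT2C had 6 of 10 positive folds and a median of 0.65, and KMT2D 7 of 10 and a median of 0.24, per the authors' deposited table. All 6 inner folds of SETD2 were positive, from 0.43 to 2.40, and the smallest FDR was 0.34 per the authors' deposited table.

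JMJD1C, of the lysine demethylase family, had 2 called peaks. The JMJD1C peak at its annotated start window, shown above, had a log2 fold of 1.65 (FDR 0.049) and an enrichment of 28.1-fold per the authors' deposited table. The other JMJD1C peak (chromosome 10, 63213572 to 63213991) had 1.73 (FDR 0.032) at 2.64-fold per the authors' deposited table. BPTF, the largest subunit of the NURF remodelling complex, had 1 call at 67945423 to 67946113 on chromosome 17, with a log2 fold of 1.30 (FDR 0.00079) per the authors' deposited table. A BPTF peak of 2401 exonic bases with 38.3-fold enrichment was not called (0.83, FDR 0.15) per the authors' deposited table. BRD2, a bromodomain reader of acetylated histones, had a called peak with a log2 fold of -1.18 (FDR 0.00012) over the start window shown above. It overlaps a peak of an unnamed gene on the opposite strand, which was also called, at -0.60 (FDR 0.014) per the authors' deposited table. Without stated strand use, reads of the 2 genes cannot be told apart. ANKRD11 had 1 call of 8, at -1.13 (FDR 0.014) per the authors' deposited table, while its peak of 4320 bases stood at -0.28 (FDR 0.25).

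Folds without a call also stood far from 0 in this group. UBN1 held the most negative inner fold, -3.29 (FDR 0.16, log10 p of the peak -2.99) per the authors' deposited table, and its dropped 5′ peak stood at -4.19. LCOR, a ligand-dependent corepressor gene, had a peak at 3.06 (FDR 0.11) per the authors' deposited table.

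Transcription factors and polymerase factors had 2 calls among 84 inner peaks (2.38%), both on ZBED6 and both negative, against 8.23% of all peaks called and 2.49% called with a negative fold. ZBED6 is known as an intronless gene derived from a transposon, inside an intron of ZC3H11A. The peaks listed under ZBED6 spanned 57580 bases with 1 gap of 46691, so they do not all lie in such an intronless gene. In the authors' deposited table the called ZBED6 peaks stood at -1.47 (FDR 0.043, 43.3-fold) and -1.65 (FDR 0.040, 8.16-fold). Each of the 6 inner peaks of ZBED6 overlaps a listed peak of ZC3H11A on the same strand, and those 2 partner peaks stood at -1.50 (FDR 0.038) and -1.42 (FDR 0.062) per the authors' deposited table. The ZBED6 calls can therefore not be assigned to ZBED6 rather than ZC3H11A. The paralogous homeobox genes ZFHX4 and ZFHX3 had no call among 11 and 9 inner peaks, with median folds of -0.17 and -0.41 per the authors' deposited table. HIVEP3 and HIVEP1, zinc finger factors that bind enhancer motifs, had medians of 0.53 and 1.09 per the authors' deposited table, again without a call. ZNF292 had folds from -2.13 to 3.17 among 8 inner peaks, and its peak at 3.17 had an FDR of 0.13 per the authors' deposited table. The 9 inner folds of the tightly spaced USF3 ran from -2.22 to 1.14, 4 of them positive, with a smallest FDR of 0.22 per the authors' deposited table.

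RNA binding and non-coding RNA genes had 3 calls among 26 inner peaks (11.5%, against 8.23% of all peaks), and 10 of the 26 passed an unadjusted p of 0.05, which 19.9% of all peaks did. ZC3H13, a subunit of the m6A writer complex itself, had 6 of 7 inner folds negative, with a median of -1.36 per the authors' deposited table. From 5′ to 3′ the ZC3H13 log2 folds were -1.98, 0.48, -1.36, -0.82, -1.25, -1.72 and -2.94 per the authors' deposited table. Only the sixth of these passed (FDR 0.0079), a junction-spanning peak at 45967604 to 45968802 on chromosome 13 with a log10 p of the peak of -107. The dropped 5′ and 3′ peaks of ZC3H13 stood on the other side of 0, at 0.62 and 1.46 with FDRs of 0.54 and 0.61, per the authors' deposited table. SPEN, a repressor that takes part in X inactivation, had 1 call, on a peak of 1950 exonic bases (0.97, FDR 0.022, 20.3-fold) per the authors' deposited table. HELZ2, a helicase and nuclear receptor coactivator gene, had a called peak of 121 bases at -1.89 (FDR 0.0085) with an enrichment of 1.94-fold per the authors' deposited table. TUG1, long studied as a non-coding RNA although the RefSeq table used lists it as protein-coding, had no call. Its 6 inner folds ran from -2.06 (FDR 0.078) to 2.34 (FDR 0.11) per the authors' deposited table, and 3 of those peaks overlap peaks of unnamed genes.

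Cytoskeletal and adhesion signalling genes had 1 call among 76 inner peaks (1.32%, against 8.23% of all peaks). It lay on MPRIP, which encodes a myosin phosphatase partner and had the most peaks of the 59 genes, 16. The called MPRIP peak, at 17167335 to 17167694 on chromosome 17, had a log2 fold of 2.25 (FDR 0.023) and an enrichment of 19.7-fold per the authors' deposited table. Only 89 bases 3′ of it, the next MPRIP peak had the lowest fold of the gene, -2.76 (FDR 0.32), per the authors' deposited table. Folds of MYH10 (non-muscle myosin heavy chain), MAP1B (microtubule-associated protein 1B) and SPTBN1 (beta-spectrin) stayed within -0.59 to 1.91 per the authors' deposited table, and none passed. SH3PXD2A, an invadopodium scaffold gene, had the lowest median fold of the 59 genes, -1.51, with values down to -3.05 (FDR 0.27) per the authors' deposited table.

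The remaining groups had no called inner peak. At an unadjusted p of 0.05 the counts were 0 of 31 for centrosome and kinetochore genes, 4 of 22 for Golgi and secretion genes and 2 of 27 for cell surface and matrix genes, against 19.9% of all peaks. CENPF, a kinetochore gene, had 6 of 7 folds negative with a median of -0.81 per the authors' deposited table. CCDC57, a centrosomal gene, had all 6 inner folds positive, from 0.38 to 2.02, while its dropped 3′ peak was called at -2.01 per the authors' deposited table. ALMS1, mutated in Alström syndrome and acting at the centriole, had 11 inner folds, 5 of them positive, with a smallest FDR of 0.44 per the authors' deposited table, and enrichments of at least 10.7-fold. CEP350 had a median fold of 0.32 per the authors' deposited table. GOLGB1 and GOLGA3, golgin tethers of the Golgi, had median folds of 0.46 and 0.11, and ERC1 0.88, per the authors' deposited table. The matrix proteoglycan gene VCAN had 8 of 11 positive folds, the atypical cadherin FAT4 3 of 9 and the proteoglycan CSPG4 2 of 7 per the authors' deposited table.

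Peaks of the same gene differed in fold about as much as peaks in general. The pooled SD of log2 folds within genes was 1.17, against 1.22 over the inner peaks and 1.11 over all peaks. The 59 gene medians ran from -1.51 to 1.25 per the authors' deposited table. Without values per library, differences between peaks of a gene cannot be told from measurement error. Medians were above 0 in 35 genes and above 0.14 in 33. Neighbouring inner peaks had folds of the same sign in 219 of 391 pairs (56.0%). The share of such pairs among unrelated peaks was not computed, so 56.0% is not read as more or less agreement. The same-sign share was 56.8% of the 234 pairs under 1000 bases apart, against 54.8% of the 157 pairs farther apart. The median absolute difference of neighbours was 1.10 on the log2 scale. Across the 391 pairs, which share libraries and genes, Pearson r was 0.04 and Spearman rho 0.05, a description of peaks rather than of replicates.

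**Figure D5:**
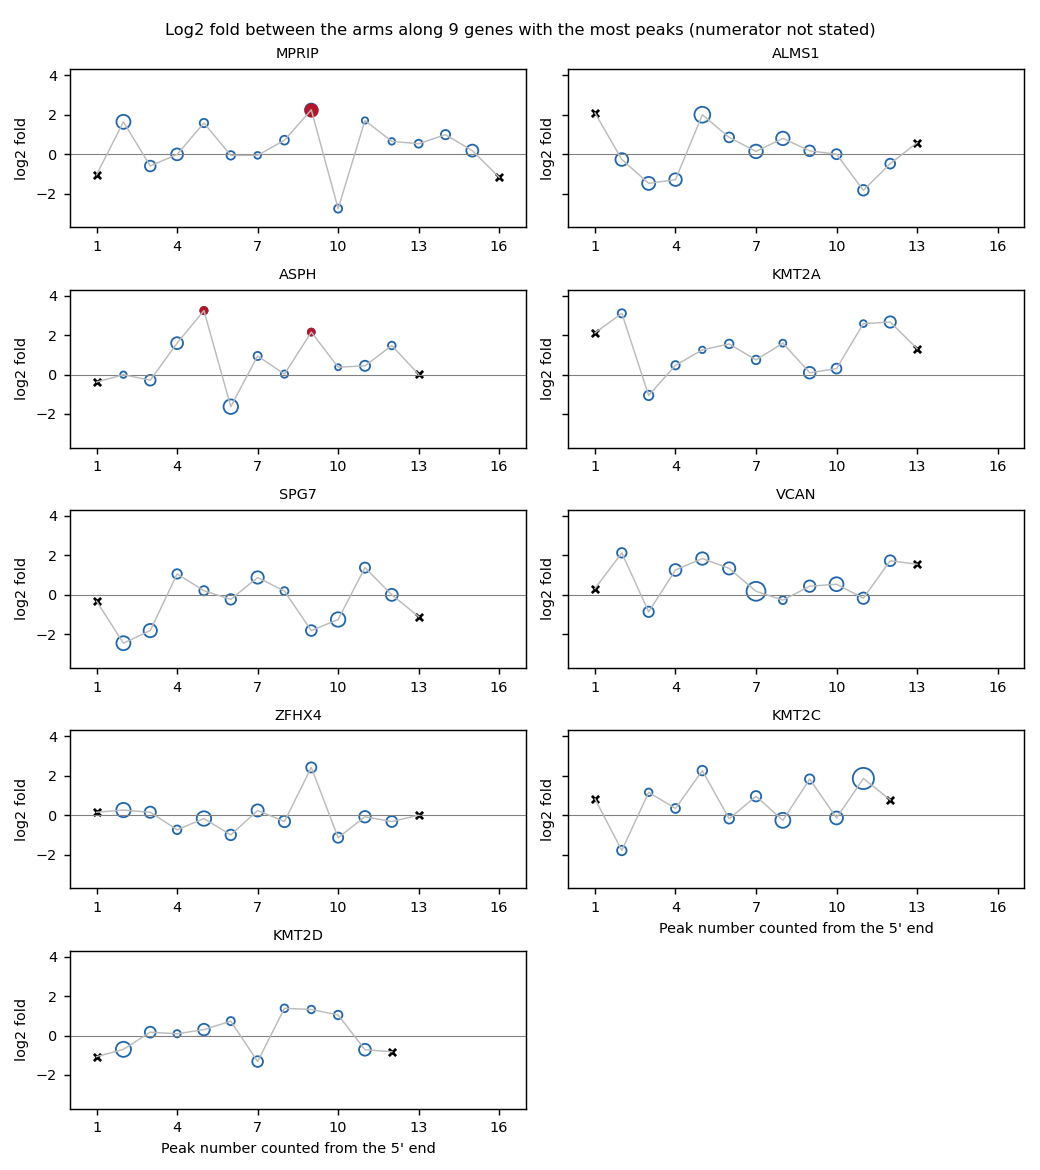
Deposited log2 fold between the arms (y axis, numerator not stated) of each peak in order from the 5′ end (x axis, peak number) for 9 of the genes with the most peaks; circles are inner peaks with area growing with enrichment, red ones passed an FDR of 0.05, and crosses are the dropped end peaks. Neighbouring peaks often lie on opposite sides of 0, as at the called MPRIP peak (2.25) and the next one (-2.76), while 10 of 11 KMT2A peaks lie above 0.

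Place along the gene was described by the order of the peaks. With the row order of each gene cut into 3 equal parts, the median enrichment was 13.0-fold in the 5′ part (137 peaks), 11.3-fold in the middle (176 peaks) and 11.8-fold in the 3′ part (137 peaks). Median log2 folds were 0.26, 0.19 and 0.18 per the authors' deposited table. Called were 4 of 137, 9 of 176 and 2 of 137 peaks, each a lower share than the 8.23% of all peaks. These calls are too few to compare the parts. The share of peaks spanning more than 1 exon block was 25.5%, 19.3% and 15.3%.

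Gene lists drawn up for this tissue and assay place the members among their relatives, over all listed peaks of each list per the authors' deposited table. The totals include the members, and members were not compared with the rest of a list. Inner peaks made up 72 of 332 chromatin peaks, 50 of 181 zinc finger and homeobox peaks and 49 of 205 scaffold peaks. Of 69 chromatin regulators 69 had a peak and 9 were dense. Their 332 peaks held 9 positive and 6 negative calls (4.52%, median log2 fold 0.14), against 8.23% of all peaks, per the authors' deposited table. The zinc finger and homeobox list had 38 of 44 genes with a peak, 6 of them dense, with 7 positive and 2 negative calls among 181 peaks (4.97%) per the authors' deposited table. Scaffold genes had 46 of 52 with a peak, 6 dense, and 11 positive and 6 negative calls among 205 peaks (8.29%) per the authors' deposited table. RNA processing genes had 43 of 47, 2 dense, with 11 positive and 7 negative calls among 172 peaks (10.5%), and adhesion genes 41 of 45, 1 dense, with 14 and 5 among 139 (13.7%), per the authors' deposited table. Cell division genes had 33 of 38, 2 dense, with 2 positive and 0 negative calls among 131 peaks (1.53%) per the authors' deposited table. Membrane traffic genes had 40 of 42, 2 dense, with 6 and 0 among 117 (5.13%), and ubiquitin genes 26 of 27, 1 dense, with 8 and 1 among 92 (9.78%), per the authors' deposited table. Kinase and GTPase genes had 49 of 54 with a peak, 0 dense, and 4 positive and 3 negative calls among 163 peaks (4.29%) per the authors' deposited table.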

How the data were processed

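Groups and replicate numbers came from the sample titles. GRCh38, BWA 0.7.12 and HOMER 4.9.1 appear, without a role, among the submitters' processing notes, and no source used here names the peak caller. Per the labels' protocols and tags, more than 1 anti-m6A antibody is named, and which one applied was not stated. Whether the spread between the 2 libraries of a group, which may be technical, entered the deposited p was not stated. The deposited list gives, per the file headers, each peak's p-value, the authors' fold enrichment as a linear ratio, and a log2 fold between the arms with its p and FDR as log10 values. The deposited p of the comparison never exceeded 0.773, and its kind is not given.

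Starts were raised by 1 to 1-based positions on GRCh38. Peaks were ordered 5′ to 3′ by strand. Calls use the deposited FDR of 0.05 over all peaks, and no test was run over the members. Overlap means at least 1 shared base of the genomic span. Symbols were matched to RefSeq GRCh38.p14 (59 of 59). The member rule, end order, merging and the Benjamini-Hochberg adjustment were checked on simulated data (Python 3.11.15, pandas 2.3.3, NumPy 2.4.6).

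The members, gene lists and roles were chosen with earlier results of these data known. Genes were named by rule (most peaks, called peaks, extremes of enrichment, list members). SETD2, CCDC57, USF3, SAMD9, MBD5, SH3PXD2A, UBN1 (folds), LCOR, TUG1, H6PD, HIVEP1, CSPG4, MICAL3 and ZNF462 were chosen after their values were seen. Alternatives were an FDR of 0.01, p doubled and adjusted again, other minimum numbers of peaks, merged overlaps, grouping by symbol, leaving out peaks shared with other genes, keeping the giant genes and, added after seeing the data, an unadjusted p. Values of 1 of the 59 genes are not reported here by name, and its peaks remain in the counts over all inner peaks.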

Additional observations from a re-analysis of the deposited data

How the results depend on the processing

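No paired analysis was possible because the analysed list holds no values per library, and for the same reason no replicate could be left out. The count of called inner peaks was 15. It moved to 7 at an FDR of 0.01 (1.56%, against 4.95% of all peaks) and to 63 at an unadjusted p of 0.05, to 42 of 780 peaks (5.38%) with genes of 7 or more peaks and to 8 of 216 (3.70%) with genes of 10 or more. It was 11 with p doubled (2.44%, against 6.36% of all peaks), when both calls of JMJD1C and both of ZBED6 ended. Without peaks that overlap another gene's it was 12 of 426 (2.82%). With the giant genes kept it was 22 of 514 (4.28%), against 8.23% of all peaks in both cases. The 64 inner peaks of the giant genes alone held 7 calls (10.9%), all negative. Positive calls were 9 of the 15, but 9 of 22 with the giant genes kept, 7 of 8 with genes of 10 or more peaks and 28 of 42 with genes of 7 or more. Genes with inner calls of both signs numbered 0, but 2 with genes of 7 or more peaks and 4 at the unadjusted p. The medians of log2 fold (0.15 to 0.23) and enrichment (11.3 to 12.2) stayed within the 95% order-statistic interval of their reported values in the alternatives that change the set. So did the median distance between consecutive inner peaks with the end peaks left out, which was 598 bases and ranged from 538 to 598. The median enrichment of the 5′ part minus that of the 3′ part, 1.20, stood at -0.500 with the giant genes kept, inside the same kind of interval. These intervals treat peaks as independent, although peaks share genes and libraries. The alternative sets also share peaks with the main set, so staying inside an interval does not show stability. Depth is unknown, so no counting error could be given for any peak.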

Other observations

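Repeated value pairs were common. Of the 450 inner peaks 240 (53.3%) had, at the precision deposited, the same enrichment and log10 p of the peak as another row of the list, against 39.1% of the peaks outside the set. Per the authors' deposited table, 8 inner peaks on 8 genes had an enrichment of 13.5-fold with a log10 p of -3.63, and 8 on 6 genes had 14.6-fold with -3.98. Of the 15 called inner peaks 2 shared their pair of values with another row. Read counts behind these values were not analysed here.

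Of the inner peaks 24, on 10 genes, overlap a listed peak of another gene, and 3 of these were called (both of ZBED6 and that of BRD2). On MICAL3, a microtubule and actin regulator gene, 3 peaks overlap peaks of an unnamed gene on the same strand. Their log2 folds of 1.71, -1.32 and 0.08 stood beside 0.08, -1.34 and 0.10 for the partners per the authors' deposited table, so 1 of the 3 pairs differed by more than 1.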
